A study of Mus musculus with 6 samples.

Results

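Lipid droplets are the stores in which hepatocytes keep triglyceride, and the 10 genes described here encode proteins that coat, build or empty these droplets or bring fatty acids to them. They are Plin2, Plin4, Plin5, Cidec, Fitm2, Pnpla2, G0s2, Cd36, Fabp1 and Vldlr, chosen by name, and each matched 1 of the 25904 genes in the deposited count table. Polyadenylated liver RNA was sequenced from C57BL/6J mice that were either Ptprd+/+ (wild type, WT) or Ptprd+/- (heterozygous, Het), with 3 libraries per genotype. Ptprd encodes receptor protein tyrosine phosphatase delta, and the series title ties its impairment to hepatic metabolic syndrome. The comparison asked how these genes differ in livers with 1 wild-type copy of Ptprd. The sources used here do not give the kind of Ptprd allele or the age, sex and diet of the mice. The design text lists 3 mice per genotype, but the labels do not tie each library to its own animal, so the p-values speak for the spread between these libraries, part of which may be technical.

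Perilipins are proteins that coat the droplet surface and govern the access of lipases to it. The droplet emerges from the endoplasmic reticulum with the help of FITM2, grows by exchange of lipid between droplets through CIDEC, and is emptied by adipose triglyceride lipase (ATGL), which Pnpla2 encodes and which the small protein G0S2 inhibits. CD36 moves long-chain fatty acids across the plasma membrane, FABP1 binds them in the hepatocyte cytosol, and the VLDL receptor takes up triglyceride-rich lipoproteins. Several of the genes, Fabp1, Plin2, Pnpla2, Vldlr and Cd36 among them, are known targets of the nuclear receptors PPARA or PPARG, which bind direct repeats of AGGTCA with 1 base between the repeats (DR1) together with RXR.

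The promoter sequences show which of the genes carry such a repeat close to their start. RefSeq starts on GRCm38.p6 were found for all 10 genes, with 13 starts in all, and the 250 bases before each start were searched on both strands for AGGTCANAGGTCA with up to 2 mismatches. A match was found in 3 of the 13 windows, those of Fabp1, Cd36 and Plin2, and in 3.23% of 32817 windows of the same length over all genes. These 3 are printed with the match in capitals, followed by the window of Pnpla2, which held no match and is shown because Pnpla2 and Fabp1 were the 2 genes whose Het libraries all lay above all WT libraries.
Fabp1: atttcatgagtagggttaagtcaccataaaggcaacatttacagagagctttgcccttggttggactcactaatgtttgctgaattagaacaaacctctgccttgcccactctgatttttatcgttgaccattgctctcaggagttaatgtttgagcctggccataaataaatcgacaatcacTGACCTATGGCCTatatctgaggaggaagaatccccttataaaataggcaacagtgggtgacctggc
Cd36: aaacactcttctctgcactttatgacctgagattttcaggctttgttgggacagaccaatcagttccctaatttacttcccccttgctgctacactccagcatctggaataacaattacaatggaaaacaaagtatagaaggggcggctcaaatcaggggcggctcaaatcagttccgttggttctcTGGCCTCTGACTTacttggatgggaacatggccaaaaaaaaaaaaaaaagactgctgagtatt
Plin2: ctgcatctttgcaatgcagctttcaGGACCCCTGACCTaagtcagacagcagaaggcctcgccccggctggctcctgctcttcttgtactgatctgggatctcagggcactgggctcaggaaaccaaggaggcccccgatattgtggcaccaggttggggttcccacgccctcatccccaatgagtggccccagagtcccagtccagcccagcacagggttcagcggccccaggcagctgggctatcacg
Pnpla2: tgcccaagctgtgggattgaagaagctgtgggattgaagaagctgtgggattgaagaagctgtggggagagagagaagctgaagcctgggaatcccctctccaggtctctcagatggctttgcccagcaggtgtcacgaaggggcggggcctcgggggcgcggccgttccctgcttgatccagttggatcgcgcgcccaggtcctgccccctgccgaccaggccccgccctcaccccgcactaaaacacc

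The Fabp1 window lies at chr6:71199629-71199878 on the plus strand, and its match, TGACCTATGGCCT, has 1 mismatch and spans bases 67 to 55 before the start. The same window holds a TATAAA box 30 to 25 bases before the start. In the annotation of the count table Fabp1 begins at 71199827, inside this window. The Cd36 window, chr5:17835897-17836146 on the minus strand, has TGGCCTCTGACTT with 2 mismatches, 63 to 51 bases before a start that lies inside the annotated gene. The Plin2 window, chr4:86670060-86670309 on the minus strand, has GGACCCCTGACCT with 2 mismatches, 225 to 213 bases before the start. The Pnpla2 window, chr7:141454938-141455187 on the plus strand, has 63.2% G and C bases, against 42.8% for Fabp1 and a median of 52.4% over all windows. The single unit AGGTCA, which also counts the exact copies inside a DR1 match, was present in 4 member windows and in 14.0% of all windows. Searched in the same way and with no mismatch, the E-box CACGTG was in 0 of the 13 windows (6.02% of all), the sterol-response letters TCACNCCAC in 0 (1.05%) and TATAAA in 1 (12.4%). These matches describe letters only, and no binding was measured.

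Libraries held 37924266 to 72954187 counts, and all 10 genes passed the filter on low counts in the comparison of 14606 genes. Levels are given in CPM, read counts scaled to the library total after TMM scaling, which evens out differences in RNA makeup. Ptprd itself read 127 to 132 CPM in WT livers against 54.1 to 78.1 CPM in Het livers. Before the results, 2 features of the libraries are needed. WT 1 had the highest Cd36, Vldlr, Plin4 and Plin5 of the 6 libraries. Het 2 and Het 3 stood apart in the clock output gene Dbp, with 129 and 122 CPM against 13.5 to 29.6 CPM in the other 4 libraries.

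Fabp1 and Pnpla2 were the members with the clearest separation between genotypes, and both were higher in Het. Fabp1, the liver fatty acid binding protein gene (ENSMUSG00000054422, chromosome 6, 71199827 to 71205023, mm10), had 3788, 5616 and 5612 CPM in WT 1, WT 2 and WT 3. It had 6484, 7073 and 7356 CPM in Het 1, Het 2 and Het 3. Every Het library was above every WT library, and WT 1 was the lowest of all. The means were 5005 ± 1054 CPM in WT livers against 6971 ± 445 CPM in Het livers (SD, n = 3). This is a log2 fold change of 0.48 (SE 0.18, 95% interval 0.06 to 0.895), or 1.39-fold. By edgeR's quasi-likelihood test over all 14606 genes the unadjusted p was 0.0295 and the adjusted p 0.685. The exact permutation test over libraries gave p = 0.1, the smallest that 3 against 3 allows. Without WT 1 the log2 fold change was 0.31 and the unadjusted p 0.0632.

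Fabp1 transcripts made up 0.381 to 0.592% of counts in WT and 0.607 to 0.751% in Het, by far the largest share among the members. Other hepatocyte markers went both ways. Of the 8 found in the table, of 9 listed, 5 had higher and 3 lower fitted values in Het (median 0.19 on the log2 scale), and 0 passed edgeR's adjusted threshold. Libraries did not overlap for 2 of them, both higher in Het, against 7.15% of all genes in that direction and 13.9% in both. Alb, the albumin gene, had 100040 to 117400 CPM in WT livers against 118410 to 144170 CPM in Het livers, and Ttr, the transthyretin gene, had a log2 fold change of 0.34 with all Het libraries above all WT libraries. Lower values in Het were those of Cps1 (-0.26), Apob (-0.13) and Fgb (-0.01, log2 fold changes), genes of the urea cycle, lipoprotein assembly and clotting. The 8 markers summed to 128500 to 153600 CPM in WT livers against 151400 to 184600 CPM in Het livers, most of it Alb, and their part in the Fabp1 difference was not tested. In bulk tissue a change in the number of cells of a type and a change in RNA per cell cannot be told apart.

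Pnpla2, the ATGL gene (ENSMUSG00000025509, chromosome 7, 141455198 to 141460743), had 49.3, 50.7 and 60.6 CPM in the WT libraries and 64.1, 61.6 and 64.5 CPM in the Het libraries. All Het libraries were above all WT libraries, by a narrow margin between WT 3 and Het 2. The log2 fold change was 0.24 (SE 0.11), 1.18-fold, with 53.5 ± 6.16 CPM in WT livers against 63.4 ± 1.54 CPM in Het livers (SD, n = 3). By edgeR's quasi-likelihood test the unadjusted p was 0.04995 and the adjusted p 0.694, and the exact permutation p was again 0.1. Leaving out WT 3 moved the log2 fold change to 0.34, and leaving out WT 1 moved it to 0.19 with an unadjusted p of 0.164.

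Among all members 0 passed edgeR's adjusted p of 0.05, as did 0% of all genes tested (limma-voom called 0 members, and DESeq2 called 0 members and 0.511% of the genes it tested). At an unadjusted p under 0.05 there were 2 members, both higher in Het, where 3.39% of all genes were higher at that level and 7.15% differed in either direction. Libraries did not overlap in the same 2 members, both higher in Het, against 7.15% of all genes in that direction, 6.72% in the lower direction and 13.9% in both. By sign 7 members were lower and 3 higher in Het, and 50.8% of all genes were lower. The median log2 fold change of the members was -0.16, against 0.00 over all genes tested (-0.0039). Without WT 1 the members' median was 0.21, and it was also positive (0.063) with a clock score, described below, as covariate. The sign of the median was therefore not settled.

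**Figure D1:**
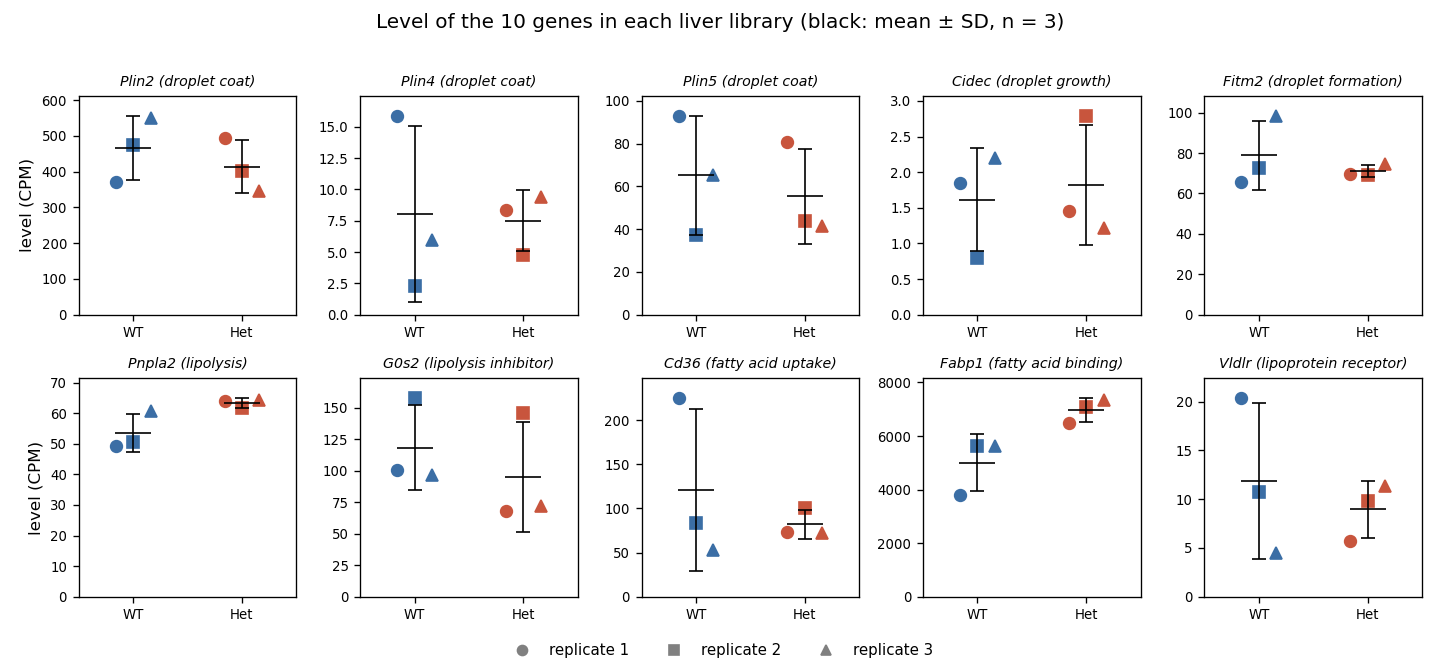
Level of each gene in CPM (vertical axes, each from 0) in the WT (blue) and Het (red) libraries, with symbols for the replicate number and black bars for mean ± SD (n = 3). Fabp1 and Pnpla2 have all Het points above all WT points, and WT 1 (blue circle) is the highest point for Cd36, Vldlr, Plin4 and Plin5.

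The inhibitor of ATGL, G0s2, varied more within genotypes than between them. G0s2 (ENSMUSG00000009633, chromosome 1, 193272161 to 193273217) had 101, 158 and 96.7 CPM in WT livers against 68.0, 145 and 72.2 CPM in Het livers. Het 2 lay beside WT 2, while Het 1 and Het 3 were below all WT libraries. On the log2 scale Het minus WT was -0.31 (SE 0.31, 95% interval -1.03 to 0.40), with an adjusted p of 0.831 by edgeR. This value turned on single libraries: it was -0.75 without Het 2 (unadjusted p 0.0106, adjusted p 0.429), -0.05 without WT 2, -0.13 without Het 1 and -0.15 without Het 3. The gene lies within the span of Lamb3 on the opposite strand, and Lamb3, a laminin subunit gene, read 6.32 ± 0.591 CPM in WT (SD, n = 3). This overlap is of gene spans, and overlap of exons was not computed. The sources used here do not give the strand setting of the counting. Where exons do overlap, reads of the shared bases cannot be told apart without strand. The ratio of G0s2 to Pnpla2 CPM, an added measure chosen after the values were seen, was 2.05, 3.11 and 1.60 in WT and 1.06, 2.36 and 1.12 in Het. The ranges overlapped through Het 2 (exact permutation test of the log2 ratio, two-sided, p = 0.3).

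The uptake genes Cd36 and Vldlr had lower means in Het, and both differences changed sign when WT 1 was left out. Cd36 (ENSMUSG00000002944, chromosome 5, 17781690 to 17888801) had 225, 83.6 and 52.9 CPM in WT livers against 73.3, 101 and 72.0 CPM in Het livers. WT 1 was above every other library, and the Het libraries lay between WT 3 and WT 1. Its log2 fold change was -0.56 (SE 0.46, edgeR adjusted p 0.795), and it was 0.26 without WT 1 and -0.91 without WT 3 (unadjusted p 0.0407, adjusted p 0.770). CD36 is also made by macrophages and endothelial cells. The 10 macrophage markers summed to 499 (WT 2) to 785 CPM (WT 1) in WT, and to 363 (Het 2) to 634 CPM (Het 1) in Het. Of these 10 markers 8 had lower and 2 higher fitted values in Het (median -0.19 on the log2 scale), and 0 passed edgeR's adjusted threshold. Libraries did not overlap for 1 of them, Marco, lower in Het, against 6.72% of all genes in that direction. The 9 sinusoidal endothelial markers summed to 378 to 438 CPM in WT livers against 355 to 473 CPM in Het livers. The part of these cells in the Cd36 values was not tested.

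Vldlr (ENSMUSG00000024924, chromosome 19, 27216484 to 27254231) had 20.4, 10.7 and 4.50 CPM in WT livers against 5.71, 9.83 and 11.4 CPM in Het livers. WT 1 was again highest and WT 3 lowest, a 4.53-fold range within WT that held all 3 Het libraries. This gave a log2 fold change of -0.40 (SE 0.48, edgeR adjusted p 0.866), and without WT 1 it was 0.23. Without both Het 2 and Het 3, the libraries with high Dbp, it was -1.05, a fit in which Het 1 was the only Het library.

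Of the perilipin genes Plin2, Plin4 and Plin5 none passed the test. All had lower fitted values in Het, and those of Plin4 and Plin5 turned positive without WT 1. Plin3, a perilipin gene outside the members, had a higher fitted value in Het (log2 fold change 0.23, SE 0.19, edgeR adjusted p 0.790). Plin2, the main perilipin of hepatocytes (ENSMUSG00000028494, chromosome 4, 86648386 to 86670060), had 372, 474 and 551 CPM in WT livers against 494, 401 and 347 CPM in Het livers. The genotypes overlapped, and WT 1 and Het 3 were the lowest libraries. Its log2 fold change was -0.17 (SE 0.18, 95% interval -0.58 to 0.24, edgeR adjusted p 0.845). Plin5, which links droplets to mitochondria in oxidative tissues (ENSMUSG00000011305), had 92.8, 37.2 and 65.4 CPM in WT livers against 80.9, 43.7 and 41.4 CPM in Het livers. WT 1 and Het 1 were high, and WT 2, Het 2 and Het 3 were low. The fitted log2 fold change was -0.24 (SE 0.35, edgeR adjusted p 0.893), and without WT 1 it was 0.11.

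Plin4, a perilipin best known from adipocytes (ENSMUSG00000002831), is the neighbour of Plin5 on chromosome 17. It runs from 56100591 to 56109803 and Plin5 from 56111601 to 56117596 on the same strand, with 1797 bases between them. Plin4 had 15.9, 2.31 and 5.94 CPM in WT livers against 8.37, 4.75 and 9.39 CPM in Het livers. WT 1 and WT 2 were the highest and lowest of all libraries, 6.88-fold apart, and the Het libraries lay between them. Plin4 was the most variable member, with a larger SD of log2 CPM over the 6 libraries than 98.5% of the genes tested. Its fitted log2 fold change was -0.10 (SE 0.59, 95% interval -1.45 to 1.26, edgeR adjusted p 0.981), and without WT 1 it was 0.88 (unadjusted p 0.0765). With limma-voom it was 0.32, so Plin4 has no settled sign here. Plin5 read 4.41 to 16.1 times as many CPM as Plin4 in the 6 libraries, before any division by length.

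Adipocyte markers were read beside Plin4, and the most specific of them were at or near 0. Of the 8 adipocyte markers 7 were in the table, and Adipoq, Plin1, Cfd and Retn had at most 0.0852 CPM in any library, while Plin1 had a count in WT 2 only. Lipe and Fabp4 had 12.9 to 23.0 and 5.22 to 6.56 CPM. The list summed to 1879 to 2347 CPM in WT livers against 1695 to 2730 CPM in Het livers, nearly all of it Car3.

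The droplet-building genes Cidec and Fitm2 also overlapped between genotypes. Cidec (ENSMUSG00000030278, chromosome 6, 113424634 to 113435760) rested on 41 to 131 counts per library and had 1.85, 0.801 and 2.20 CPM in WT livers against 1.45, 2.79 and 1.22 CPM in Het livers. Het 2 was highest and WT 2 lowest. The log2 fold change was 0.18 (SE 0.43, 95% interval -0.82 to 1.18, edgeR adjusted p 0.946), and it was -0.26 without Het 2. Fitm2 (ENSMUSG00000048486, chromosome 2, 163466379 to 163472629) had 65.6, 72.7 and 98.3 CPM in WT livers against 69.7, 69.2 and 74.6 CPM in Het livers. WT 3 was above the other 5 libraries, which spanned 65.6 to 74.6 CPM. The log2 fold change was -0.15 (SE 0.15, edgeR adjusted p 0.836), and without WT 3 it was 0.04. An antisense gene, 2310001K24Rik, overlaps 673 bases of the span of Fitm2, with the same limits as for G0s2.

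**Figure D2:**
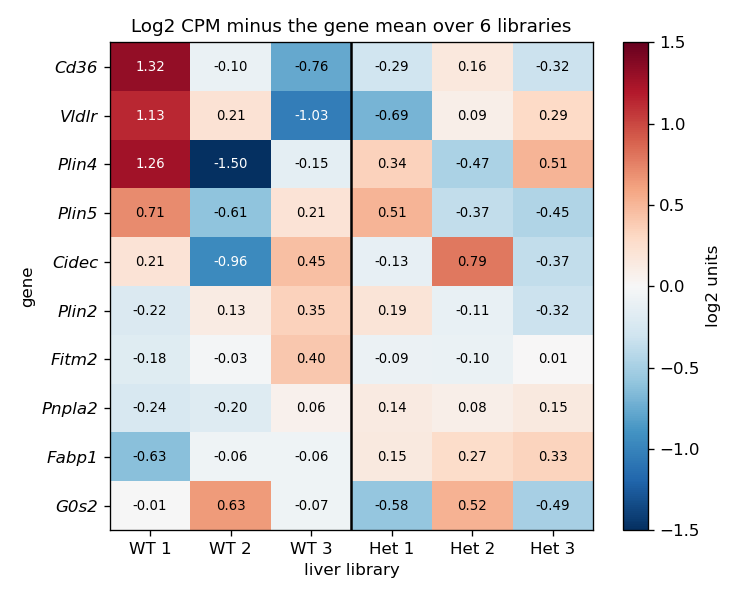
Log2 CPM of each gene minus its mean over the 6 libraries (colour and printed values, log2 units), with WT left and Het right of the line. The largest deviations are in WT 1 (Cd36 1.32, Plin4 1.26, Vldlr 1.13) and WT 2 (Plin4 -1.50), while Fabp1 and Pnpla2 are positive in all Het libraries.

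The library pattern differed from gene to gene. WT 1 was highest for 4 members and lowest for Fitm2, Pnpla2 and Fabp1. WT 2 was highest for G0s2 and lowest for Plin4, Plin5 and Cidec. The spread within WT was larger than within Het for 9 of the 10 genes by the ratio of the highest to the lowest library, from 1.23 to 6.88 in WT and from 1.05 to 2.28 in Het. G0s2 was the exception, at 1.63 in WT and 2.14 in Het. Over all genes, the chi-square of the counts per degree of freedom was 106 and 104 for WT 1 against WT 2 and WT 3. It was 40.0 for WT 2 against WT 3, and 60.7 to 80.6 between Het libraries. The share of all genes with a wider range in WT was not computed, so the pattern cannot be called particular to these 10 genes. With 3 libraries a genotype no test of the spread was made.

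**Figure D3:**
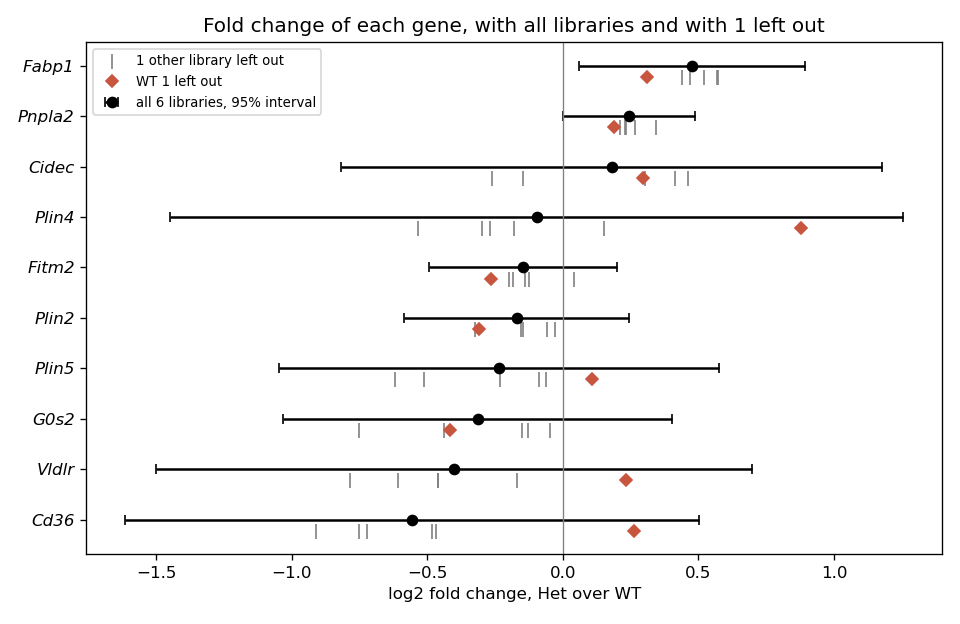
Log2 fold change, Het over WT (horizontal axis), from all 6 libraries with its 95% interval (black), with WT 1 left out (red diamonds) and with each other library left out (grey ticks). The diamonds of Cd36, Vldlr, Plin5 and Plin4 lie above 0 while the black points lie below it.

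Levels between genes were compared per kilobase of annotated exon. In WT, Fabp1 stood alone at 9051 ± 1907 CPM per kb (SD, n = 3). G0s2 and Plin2 followed at 136 ± 39.0 and 133 ± 25.6 CPM per kb and did not differ beyond their spread. Cd36 (33.6 ± 25.6), Plin5 (31.2 ± 13.3), Fitm2 (19.9 ± 4.34) and Pnpla2 (17.7 ± 2.04 CPM per kb) overlapped as neighbours in the order. Plin4 (1.39 ± 1.22), Vldlr (1.18 ± 0.794) and Cidec (0.870 ± 0.391 CPM per kb) were lowest and overlapped too. In Het, Fabp1 had 12610 ± 805, Plin2 118 ± 21.3 and G0s2 109 ± 50.02 CPM per kb, and the same 3 genes were lowest. Exon lengths came from GENCODE M21. With the median transcript length in the deposited table, which is short for Plin2, Plin2 came to 659 CPM per kb in WT and stood above G0s2.

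Around the 10 genes, 6 lists of lipid storage and uptake genes held 75 further tested genes out of 83 listed, and again 0 passed edgeR's adjusted threshold while DESeq2 called 2. At an unadjusted p under 0.05 there were 4 higher (5.33%) and 7 lower in Het (9.33%), where all genes gave 3.39% and 3.77%. Libraries did not overlap for 16 of the 75 (21.3%), against 13.9% of all genes. The lists were chosen with earlier results of these data known, so shares above those of all genes cannot be read as an excess. The median log2 fold change was -0.02. The 4 with higher values were Mgll, Fabp2, Slc27a1 and Slc27a3, and the 7 with lower values were Acsl5, Acsl4, Fabp5, Pnpla3, Ces1d, Lipa and Lrp6.

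The fatty acid uptake, binding and activation list was the one with most such genes, 4 higher and 3 lower of 20 tested, with Fabp1 among the higher. Acsl5, an acyl-CoA synthetase gene that activates fatty acids, had 866, 669 and 702 CPM in WT livers against 521, 531 and 481 CPM in Het livers. All Het libraries were below all WT libraries (log2 fold change -0.54, SE 0.13, adjusted p 0.5997 by edgeR and 0.0319 by DESeq2). Slc27a1, a fatty acid transport protein gene, had 9.52 ± 1.18 CPM in WT livers against 12.3 ± 0.806 CPM in Het livers (SD, n = 3). Fabp5, a fatty acid binding protein gene of many cell types, had 26.8, 31.0 and 69.8 CPM in WT livers against 21.8, 22.5 and 24.0 CPM in Het livers. WT 3 was above the other 5 libraries, which spanned 21.8 to 31.0 CPM.

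Of the 14 tested genes of lipolysis and its control 2 were higher and 2 lower at an unadjusted p under 0.05. Mgll, the monoacylglycerol lipase gene of the last step after ATGL, had 254, 280.5 and 318 CPM in WT livers against 338, 346 and 359.9 CPM in Het livers. Its Het libraries were all above its WT libraries, as with Pnpla2 (log2 fold change 0.29, SE 0.11, edgeR adjusted p 0.692). Ces1d, a carboxylesterase gene that acts on stored triglyceride, had 1967 ± 158 CPM in WT livers against 1544 ± 140 CPM in Het livers (SD, n = 3), with all Het libraries lower. Abhd5, which encodes the activator of ATGL, had 26.8 to 32.1 CPM in WT livers against 27.0 to 29.0 CPM in Het livers.

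The other lists held fewer differences. Of 14 tested genes of droplet formation and growth 1 was lower at an unadjusted p under 0.05, Pnpla3, a droplet lipase and acyltransferase gene with 61.7, 19.1 and 17.1 CPM in WT livers against 1.51, 6.17 and 4.55 CPM in Het livers. Its Het libraries were all lower (edgeR adjusted p 0.531, DESeq2 adjusted p 0.0407). Bscl2, the seipin gene that acts where droplets form, had 42.8 ± 0.993 CPM in WT livers against 49.5 ± 3.95 CPM in Het livers (SD, n = 3). Of 16 tested droplet coat and surface genes 0 differed at that level in either direction, with Vps13c at -0.34 and Hsd17b11 at 0.21 on the log2 fold change scale having the smallest p. Of 21 lipoprotein receptor and lipase control genes 1 was lower, Lrp6, at 73.6 ± 3.05 CPM in WT livers against 56.8 ± 9.56 CPM in Het livers (SD, n = 3), and Lipc, the hepatic lipase gene, had a log2 fold change of 0.22. Of 12 tested PPARG-linked genes 1 was lower, Fabp5, and Lpl, the lipoprotein lipase gene, had a log2 fold change of -0.41. That list had a median of -0.25 with 11 genes of 12 lower, where 50.8% of all genes were lower. It shares 6 tested members with the 10 genes, of which Cd36, Vldlr and Plin4 depended on WT 1. Of its other genes, Mogat1 was highest in WT 1 (2.65 CPM, against 0.899 and 0.589 CPM in WT 2 and WT 3), and Fabp5 was highest in WT 3.

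**Figure D4:**
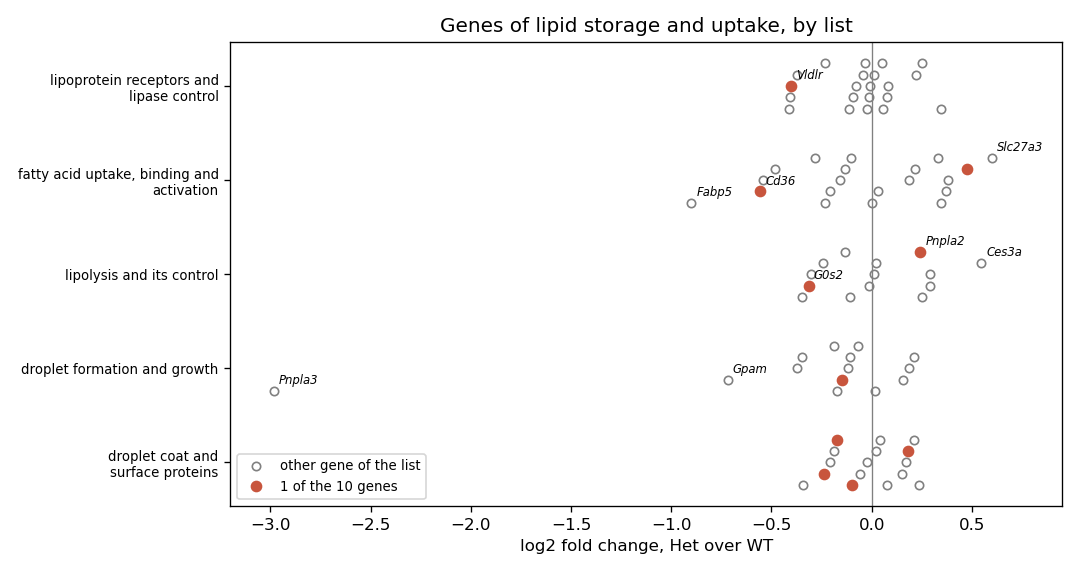
Log2 fold change, Het over WT (horizontal axis), of the tested genes of 5 lists (rows, with vertical offsets for legibility only). The 10 genes are filled and the others open. Pnpla3, at -2.98, lies farthest from 0, and the filled points lie between -0.56 (Cd36) and 0.48 (Fabp1).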

How the data were processed

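Libraries from 3 WT and 3 Het livers were made with the TruSeq Stranded mRNA kit, per the labels' protocols. The authors deposited raw read counts per Ensembl gene, and the tools named by the submitters' processing notes include STAR 2.5.3a for build mm10, HTSeq 0.6.1p1, cutadapt 1.10 and DESeq2 1.16.1. The sources used here do not give the strand setting, annotation release or handling of multi-mapped reads. Gene lengths in bases came with the deposited table, and the 12 normalized columns were not used because their decimal marks were altered.

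Genes were filtered with filterByExpr and tested with edgeR 4.0.16 (R 4.3.3; TMM, quasi-likelihood test, genotype as the only term, two-sided, Benjamini-Hochberg over all genes, threshold 0.05). SEs come from the F statistic. DESeq2 1.42.0 and limma-voom (limma 3.58.1) were alternatives, with other scalings, filters, a replicate block, left-out libraries and a clock score as a covariate. The score is the mean log2 CPM (prior count 2) of 7 clock and clock output genes minus that of 3 genes of opposite phase. The test was also run on simulated data with planted fold changes larger than those of Fabp1 and Pnpla2. That check does not bear on differences of their size. No 2 libraries agreed within sampling noise. The members and lists were chosen with earlier results of these data known. The text names all members, the 2 genes with the smallest p besides members in each of 6 lists, the 5 genes most like the most variable member, Ptprd and Dbp. Other genes were named after their values were seen.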

Additional observations from a re-analysis of the deposited data

How the results depend on the processing

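No member passed the adjusted threshold in any of the 15 alternatives. Over all genes edgeR called 0, against 66 with DESeq2 and 73 with no filter on low counts, and 0 to 1 when a library was left out. Members at an unadjusted p under 0.05 numbered 2, against 1 with DESeq2 and with no filter (Fabp1 in both). They numbered 0 with the clock score as covariate, and 0 to 3 when a library was left out. Leaving out both Het 2 and Het 3 left Het 1 as the only Het library. The p-values of that fit do not measure spread within Het and are not given. Its log2 fold changes were -0.80 for G0s2, 0.38 for Fabp1 and 0.26 for Pnpla2. The members' median log2 fold change of -0.16 became -0.035 without both Het 2 and Het 3, was 0.063 once the score entered the fit, and ranged from -0.18 to 0.21 with a library left out (0.21 without WT 1). Of 150 member values under alternatives 134 kept their sign and 16 did not. Fabp1 (0.31 to 0.57), Pnpla2 (0.19 to 0.34) and G0s2 (-0.80 to -0.05) never changed sign. Outside left-out single libraries, signs turned for Plin4 with limma-voom (0.32), the replicate block (0.24), with the score as covariate (0.15) and without Het 2 and Het 3 together (0.065), for Plin5 with the score (0.20) and without those libraries (0.32), and, again without those libraries, for Plin2 (0.088) and Cidec (-0.13). With a library left out, Plin4 ranged from -0.53 to 0.88, Plin5 from -0.62 to 0.11, Cidec from -0.26 to 0.46, Fitm2 from -0.26 to 0.042, Cd36 from -0.91 to 0.26 and Vldlr from -0.79 to 0.23. The cause of these turns was not tested. Correlations of deviations were -0.07, 0.12 and 0.15 for libraries that share the replicate numbers 1, 2 and 3. They were -0.30 to 0.18 for libraries of unlike number. With 3 libraries per genotype these values cannot settle whether the numbers pair the samples. With the replicate block 0 members were called. The 2 at an unadjusted p under 0.05 were then Fabp1 (0.4993 on the log2 scale, p 0.0301) and G0s2 (-0.37, p 0.0232), while Pnpla2 (0.25) had p 0.0535. Counts of 41 to 131 per library limit the precision of Cidec.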

Other observations

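The genes whose levels followed those of Plin4 most closely over the 6 libraries were Creg1, Gpihbp1, Wbp1l, Pxn and Src, with Pearson r of 0.99, 0.98, 0.98, 0.98 and 0.97 over the 6 libraries as the measure of likeness, out of 11377 genes compared, of which 12 had r above 0.95. Gpihbp1 encodes the endothelial protein that holds lipoprotein lipase at the capillary wall, and it had 26.1, 18.5 and 20.7 CPM in WT livers against 23.4, 21.2 and 23.3 CPM in Het livers. Creg1, which encodes a secreted glycoprotein found in lysosomes, had 384, 248 and 296 CPM in WT livers against 318, 284 and 342 CPM in Het livers. Both were highest in WT 1 and lowest in WT 2, as was Plin4, and neither separated the genotypes. Their ranges were narrow beside that of Plin4, and Pxn, the paxillin gene, spanned only 43.5 to 46.6 CPM. With 6 libraries and so many genes, likeness of this size is a description and carries no test.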
